A study of Homo sapiens with 6 samples.

Results

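The 10 genes GATA1, GATA2, TAL1, LYL1, LMO2, LDB1, CBFA2T3, KLF1, NFE2 and GFI1B, out of 19785 in the table, were followed in the SET-2 leukemia line. They were chosen by name as factors of the erythroid and megakaryocytic transcription complex, and each symbol matched a single row. SET-2 is an established human cell line of megakaryoblastic character, described by the submitters as secondary acute myeloid leukemia and as leukemia blast cells. The parental line was compared with its OTX P/R derivative, which was made resistant to OTX, taken to be birabresib, an inhibitor of the BET readers of acetylated histones. Each group comprised 3 libraries of total RNA, described as biologic replicates, from untreated cultures in exponential growth in the same serum-containing medium. Only 1 derivative is named, and resistance and other differences between these lines cannot be told apart.

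GATA1 and GATA2 are zinc finger proteins that bind GATA sites, and TAL1 and LYL1 are basic helix-loop-helix proteins that bind E-boxes together with E proteins. LMO2 and LDB1 bind no DNA themselves and bridge these proteins into one complex, and LDB1 also brings enhancers and promoters together. CBFA2T3, also called ETO2, is a corepressor that joins this complex and restrains erythroid and megakaryocytic target genes before maturation. KLF1 activates erythroid genes through CACC elements, NFE2 acts with small Maf proteins in platelet formation and globin expression, and GFI1B is a repressor needed in both lineages. GATA2 is prominent in progenitors and gives way to GATA1 as erythroid cells mature.

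GATA factors bind promoters and enhancers of this network, their own included. Promoters of 5 members are shown, the 4 that held a GATA word and that of CBFA2T3, which changed most and held none. The 250 bases before the gene start were read from RefSeq on GRCh38.p14, which held 11 promoters of 8 members. LMO2 and NFE2 had no entry. The words AGATAA or TGATAA, and the forms AGATAG or else TGATAG, searched on both strands, stand in capitals, and a word on the opposite strand is shown as its reverse complement.
TAL1 (chr1:47232336-47232585, minus strand): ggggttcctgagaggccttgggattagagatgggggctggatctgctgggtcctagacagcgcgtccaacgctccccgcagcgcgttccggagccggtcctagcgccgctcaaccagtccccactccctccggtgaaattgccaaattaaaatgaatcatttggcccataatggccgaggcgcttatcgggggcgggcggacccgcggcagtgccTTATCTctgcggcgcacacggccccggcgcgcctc
GFI1B (chr9:132978444-132978693, plus strand): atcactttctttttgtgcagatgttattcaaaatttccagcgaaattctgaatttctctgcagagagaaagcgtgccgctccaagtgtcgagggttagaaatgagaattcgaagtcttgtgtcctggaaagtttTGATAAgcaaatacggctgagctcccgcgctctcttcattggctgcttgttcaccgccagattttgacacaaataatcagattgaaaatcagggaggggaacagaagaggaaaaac
KLF1 (chr19:12887202-12887451, minus strand): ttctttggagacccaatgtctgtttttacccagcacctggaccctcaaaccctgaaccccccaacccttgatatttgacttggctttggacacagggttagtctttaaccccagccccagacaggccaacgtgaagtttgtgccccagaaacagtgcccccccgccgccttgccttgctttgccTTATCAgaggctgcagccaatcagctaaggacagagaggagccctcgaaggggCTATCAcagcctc
LYL1 (chr19:13102859-13103108, minus strand): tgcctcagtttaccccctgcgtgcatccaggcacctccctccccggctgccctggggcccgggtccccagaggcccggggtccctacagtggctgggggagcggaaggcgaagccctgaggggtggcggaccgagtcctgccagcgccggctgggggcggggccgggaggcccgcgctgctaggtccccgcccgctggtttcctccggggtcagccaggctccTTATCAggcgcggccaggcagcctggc
CBFA2T3 (chr16:88941351-88941600, minus strand): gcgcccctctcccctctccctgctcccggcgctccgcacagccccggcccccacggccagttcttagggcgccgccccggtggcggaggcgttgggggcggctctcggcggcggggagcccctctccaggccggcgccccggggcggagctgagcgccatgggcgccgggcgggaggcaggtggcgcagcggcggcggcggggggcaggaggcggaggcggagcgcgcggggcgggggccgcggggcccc
At least 1 such word was found in 4 of the 11 promoters, from the 4 members TAL1, GFI1B, KLF1 and LYL1. The share was 22.3% among 35116 RefSeq promoters of that length. KLF1 held 2, starting 66 and 13 bases before its start, LYL1 held 1 at 27 bases and TAL1 held 1 at 35 bases in 1 of its 2 windows, in each case on the opposite strand. GFI1B held 1 at 116 bases, upstream of the second of its 2 listed starts. None was found in the windows of CBFA2T3, GATA1, GATA2 or LDB1, which says only that these letters are absent there. The CACC word CCNCACCC, searched on both strands, occurred in 16.7% of all promoters and among the members only in GATA1, 120 bases before its start. The window of CBFA2T3 was 84.4% G and C, the highest of the 11.

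The values are StringTie abundances per gene on a linear scale that the authors quantile-normalized, so each value stands for a position in the ranking of that library. StringTie abundances are scaled to transcript length, and all levels compared between genes below are on this scale. Library sums were 419375 to 419437 by construction, which leaves the depth unknown. Across tested genes, log2 values correlated at 0.986 to 0.988 within a line and at 0.948 to 0.949 between lines. All 10 members passed the filter of a mean of at least 1, as did 10741 genes in all. The megakaryocyte marker ITGA2B averaged 216 in parental and 137.7 in OTX P/R libraries, and the erythroid globin HBE1 7465 and 1291. Some markers of both lineages were thus present in each line, but not all. The erythroid markers SLC4A1 and AHSP and the megakaryocyte markers PF4, PPBP and VWF averaged under 1 in each line.

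Of the 10 factors, 4 rose in OTX P/R cells, 1 fell and 5 did not pass the test. GFI1B, GATA2, TAL1 and NFE2 rose by fitted log2 fold changes between 0.23 and 0.69, and CBFA2T3 fell by 4.31 on the log2 scale. GATA1, LYL1, LMO2, LDB1 and KLF1 did not pass. Among all tested genes 36.1% passed, 18.6% as higher and 17.5% as lower (limma, Benjamini-Hochberg adjusted p under 0.05). The library values of the lines did not overlap for 8 of the 10 members and for 51.6% of all tested genes. The median log2 fold change was 0.22 over the 10 members and 0.02 over all tested genes. In bulk RNA, fewer cells expressing a gene and less RNA per cell cannot be told apart.

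**Figure D1:**
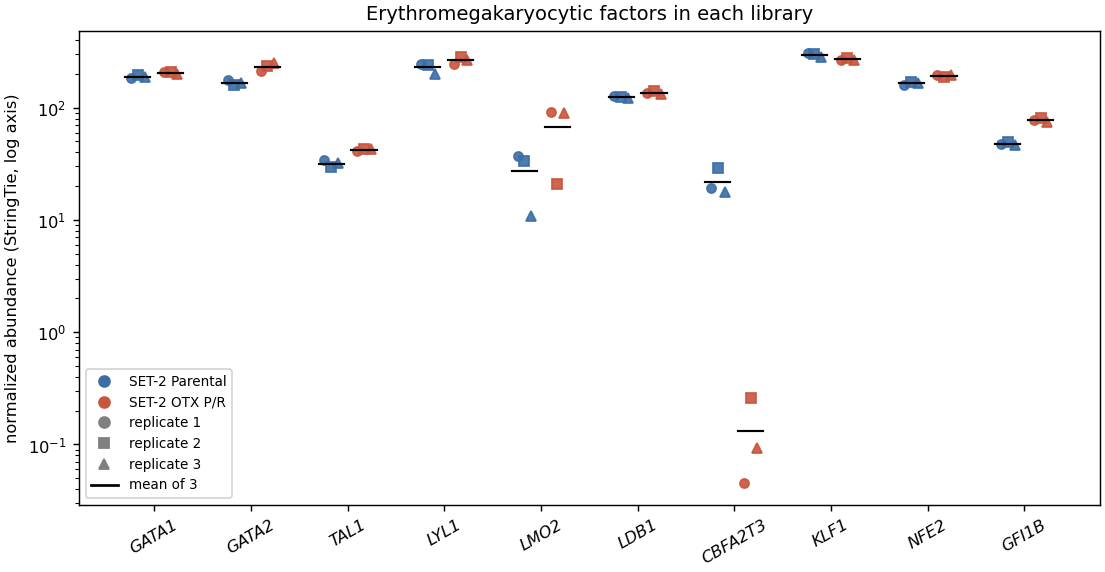
Normalized abundance of the 10 factors in each library on a log axis; blue is parental, red is OTX P/R, marker shapes are replicates 1 to 3 and black lines are means. CBFA2T3 drops from 17.6 to 28.8 in the parental libraries to at most 0.261 in OTX P/R, while LMO2 is the other gene with a wide spread inside each line.

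Most of these factors were among the most abundant transcripts of SET-2 cells. GATA1, GATA2, LYL1, LDB1, KLF1 and NFE2, 6 of the 10, lay above the 97th percentile of all genes in every library. In the parental line the order of mean abundance was KLF1, LYL1, GATA1, GATA2, NFE2, LDB1, GFI1B, TAL1, LMO2 and CBFA2T3. Neighbours in that order whose library values overlapped were GATA2 with NFE2, TAL1 with LMO2, and LMO2 with CBFA2T3. In OTX P/R cells the order was KLF1, LYL1, GATA2, GATA1, NFE2, LDB1, GFI1B, LMO2, TAL1 and CBFA2T3. There the overlapping neighbours were KLF1 with LYL1, LYL1 with GATA2, GFI1B with LMO2, and LMO2 with TAL1. GATA1 stood above GATA2 in the parental order and below it in the OTX P/R order, without overlap in either line.

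Of the GATA factors, GATA2 rose and GATA1 did not pass. GATA2 (chromosome 3) stood at 176.5, 157.9 and 165.3 in parental replicates 1 to 3 and at 211.3, 233.2 and 248.6 in OTX P/R replicates 1 to 3. Every OTX P/R library lay above every parental one. Its mean went from 166.6 ± 9.37 to 231.0 ± 18.8 (SD, n = 3 per line), and the log2 fold change was 0.47 ± 0.08 (SE; limma adjusted p = 0.00477). GATA1 (chromosome X), the factor of erythroid and megakaryocytic maturation, measured 183.9, 193.6 and 188.5 in parental and 205.8, 206.5 and 199.5 in OTX P/R libraries. These values did not overlap either, but the difference was small. GATA1 had a log2 fold change of 0.11 (95% interval 0.01 to 0.21; limma adjusted p = 0.0776).

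Within each library, the difference of GATA2 minus GATA1 on the log2(value + 1) scale changed sign between the lines. It was -0.06, -0.29 and -0.19 in the parental libraries and 0.04, 0.17 and 0.32 in the OTX P/R libraries. The lines differed by 0.36 without overlap, with an exact two-sided permutation p = 0.1, the smallest that 3 libraries against 3 allow, and 0.15 after adjustment over the 6 pairs of factors compared. The difference of KLF1 minus GATA1 averaged 0.65 ± 0.09 in parental and 0.40 ± 0.04 in OTX P/R libraries (SD, n = 3 per line; exact p = 0.1, adjusted 0.15). NFE2 minus GATA1 went from -0.20 ± 0.01 to -0.08 ± 0.05 with the same exact p values. Neither pair overlapped between lines.

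**Figure D2:**
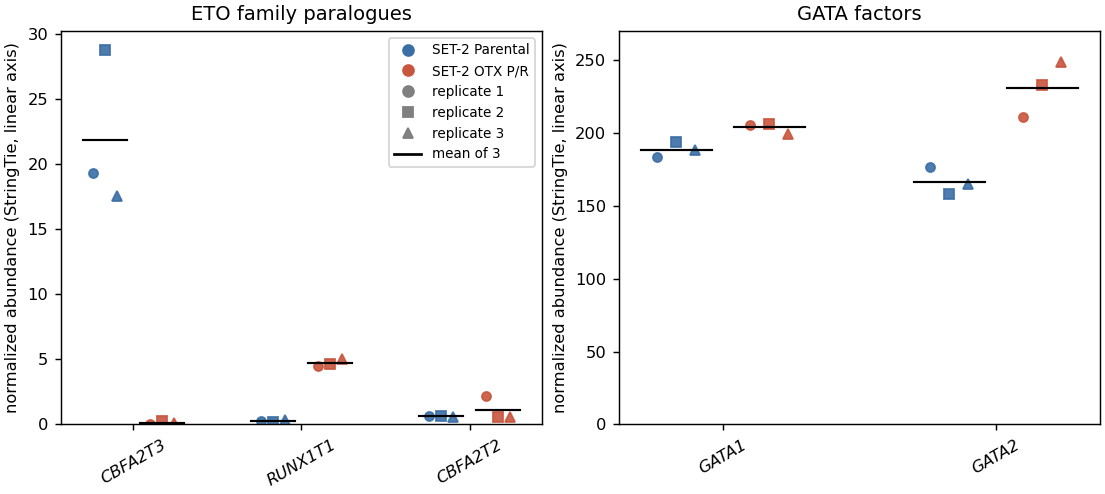
Normalized abundance on linear axes in each library of CBFA2T3 and its paralogues RUNX1T1 and CBFA2T2 (left) and of GATA1 and GATA2 (right); colours are lines, shapes are replicates and black lines are means. CBFA2T3 falls to at most 0.261 while RUNX1T1 reaches 4.49 to 5.003, and GATA2 lies below GATA1 in parental cells and above it in OTX P/R cells.

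Of the helix-loop-helix factors, TAL1 rose and LYL1 did not pass. TAL1 (chromosome 1) measured 34.1, 29.4 and 31.9 in the parental libraries and 40.7, 42.5 and 42.6 in the OTX P/R libraries, without overlap. Its log2 fold change was 0.39 ± 0.06 SE, with a limma adjusted p = 0.00520. LYL1 (chromosome 19), a close relative of TAL1, measured 246.7, 242.0 and 198.5 in parental and 245.6, 284.2 and 266.9 in OTX P/R cells. Parental replicate 3 was the lowest, and the lines overlapped because parental replicate 1 lay just above OTX P/R replicate 1. LYL1 had a log2 fold change of 0.22 (95% interval -0.03 to 0.46; limma adjusted p = 0.148). LYL1 exceeded TAL1 in every library, by 2.81 ± 0.20 in the parental line and 2.63 ± 0.08 in OTX P/R cells on the log2(value + 1) scale (SD, n = 3 per line; exact permutation p = 0.3).

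The bridging proteins LMO2 and LDB1 did not pass, LDB1 with tight replicates and LMO2 with a wide spread. LDB1 (chromosome 10) stood at 128.2, 125.5 and 121.3 in parental and 134.3, 142.0 and 132.8 in OTX P/R libraries. LDB1 had a log2 fold change of 0.12 (95% interval 0.01 to 0.24; limma adjusted p = 0.0838). LMO2 (chromosome 11), a LIM-only protein, measured 36.8, 33.5 and 10.9 in the parental libraries and 90.9, 20.8 and 89.0 in the OTX P/R libraries. Parental replicate 3 and OTX P/R replicate 2 were low against the other libraries of their lines, and the lines overlapped. The highest and lowest values within a line differed 3.36-fold in parental and 4.38-fold in OTX P/R cells, against 1.18-fold at most for GATA1, GATA2, TAL1, LDB1, KLF1, NFE2 and GFI1B. The log2 fold change of LMO2 was 1.18 with a 95% interval of -0.55 to 2.91 (limma adjusted p = 0.248). It was 0.64 without parental replicate 3 and 1.86 without OTX P/R replicate 2 (limma adjusted p = 0.0563).

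CBFA2T3 fell from a level close to that of LMO2 to under 0.3 in each OTX P/R library. CBFA2T3 (chromosome 16) stood at 19.4, 28.8 and 17.6 in parental replicates 1 to 3 and at 0.0453, 0.261 and 0.0924 in OTX P/R replicates 1 to 3. It lay between the 81.2nd and 87.5th percentiles of its library in parental cells and between the 32.0th and 39.6th in OTX P/R cells. The mean was 21.9 ± 6.04 against 0.133 ± 0.113 (SD, n = 3 per line), and the parental mean was 165 times the OTX P/R mean. The log2 fold change was -4.31 ± 0.19 SE with a limma adjusted p = 3.34e-05, the fourth largest fall among all tested genes. Its size depends on the constant added before the logarithm, and was -6.64 with 0.1 and -2.37 with 5 in place of 1.

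The paralogues of CBFA2T3 did not take the same course. RUNX1T1, the founding ETO corepressor known from leukemia fusions, rose from 0.247, 0.193 and 0.373 in the parental libraries to 4.49, 4.66 and 5.003 in the OTX P/R libraries. Its log2 fold change was 2.17 ± 0.08 SE, with a limma adjusted p = 2.21e-05. CBFA2T2 stayed under the filter, at 0.573 to 0.656 in parental libraries, 0.582 and 0.590 in OTX P/R replicates 2 and 3, and 2.18 in OTX P/R replicate 1. The 3 paralogues summed to 22.8 ± 5.99 in parental and 5.97 ± 0.65 in OTX P/R cells (SD, n = 3 per line). RUNX1T1 was the most abundant of them in each OTX P/R library and CBFA2T3 in each parental library.

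Relative to TAL1, which rose, CBFA2T3 moved from a mean log2 difference of -0.55 ± 0.45 to -5.25 ± 0.12 on the log2(value + 1) scale (SD, n = 3 per line). The values did not overlap, with an exact permutation p = 0.1 and 0.15 adjusted over the 6 pairs. LMO2 minus LDB1, the last pair, overlapped between lines (exact permutation p = 0.3).

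Of the lineage factors KLF1, NFE2 and GFI1B, the latter pair rose and KLF1 did not pass. GFI1B (chromosome 9) measured 47.5, 49.4 and 46.1 in parental and 77.5, 80.1 and 74.9 in OTX P/R libraries. The log2 fold change of 0.69 ± 0.05 SE, with a limma adjusted p = 1.70e-04, was the largest rise among the members that passed. NFE2 (chromosome 12) measured 158.8, 169.2 and 165.7 in parental and 195.1, 189.1 and 195.1 in OTX P/R libraries, and its log2 fold change was 0.23 ± 0.04 (SE) at a limma adjusted p = 0.00805. Both genes were higher in all OTX P/R libraries than in any parental one. KLF1 (chromosome 19), the most abundant member by mean in each line, measured 308.1, 301.9 and 280.9 in parental and 264.5, 276.8 and 267.9 in OTX P/R libraries. These values did not overlap, and KLF1 was the only member besides CBFA2T3 with a negative log2 fold change, -0.14 with a 95% interval of -0.26 to -0.02 (limma adjusted p = 0.0779). KLF1 passed as lower when parental replicate 3 was left out (log2 fold change -0.18, limma adjusted p = 0.0361).

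**Figure D3:**
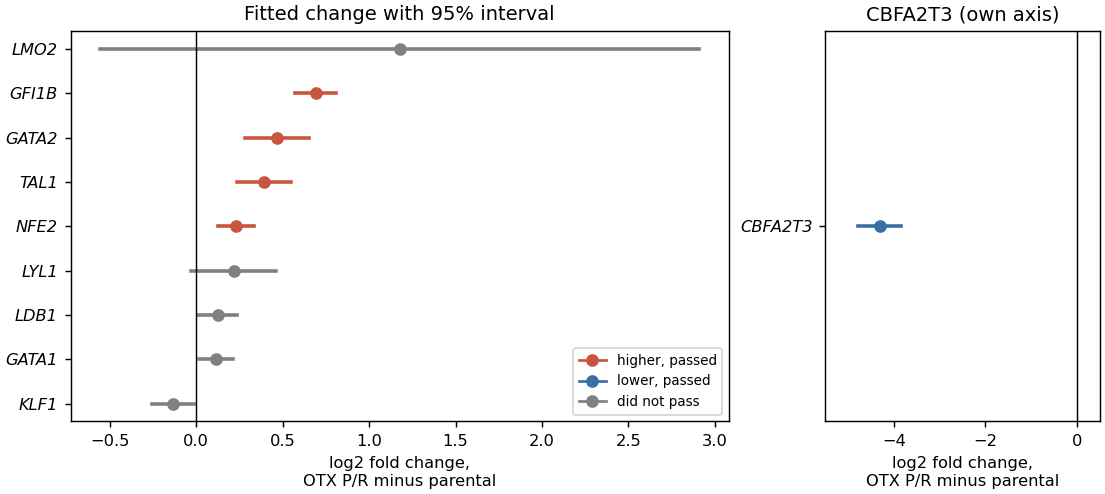
Fitted log2 fold change of each factor (OTX P/R minus parental) with its 95% interval; red passed as higher, blue as lower and grey did not pass, and CBFA2T3 has its own axis. GFI1B, GATA2, TAL1 and NFE2 lie right of 0, the interval of LMO2 runs from -0.55 to 2.91, and CBFA2T3 lies at -4.31.

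To describe the genomic surroundings of each member, the 5 tested genes on either side were taken in GENCODE order, as a description with no test. The genes on one side of CBFA2T3 were higher and those on the other side did not pass. Of its 10 neighbours 5 rose, all of them on the first side, and none fell, with a median log2 fold change of 0.33. The nearest tested genes on that side, TRAPPC2L, a vesicle tethering subunit, and GALNS, a lysosomal sulfatase, rose by log2 fold changes of 1.70 and 1.51, while ACSF3 on the other side had a log2 fold change of 0.10 and did not pass.

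KLF1 and LYL1 lie close together on chromosome 19 and share 4 of their 10 neighbours. Of the 10 around KLF1, 8 fell and 2 did not pass, at a median of -0.71 and ranging from -1.90 for DNASE2 to -0.29 for CALR. The value of KLF1 itself, -0.14, lay above all of them. Of the 10 around LYL1, 5 fell, with a median of -0.37, while LYL1 itself stood at 0.22. The neighbours of GATA1 (median 0.03), LMO2 (-0.02), LDB1 (-0.03) and NFE2 (-0.01) were near the median of all tested genes, 0.02, although with 10 genes on each side that of LDB1 was -0.12 and that of LMO2 0.05. Those of GATA2, TAL1 and GFI1B had medians of 0.18, 0.13 and 0.13, below the change of the factor in each case, and of -0.01, 0.06 and 0.03 when 10 genes on each side were taken.

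**Figure D4:**
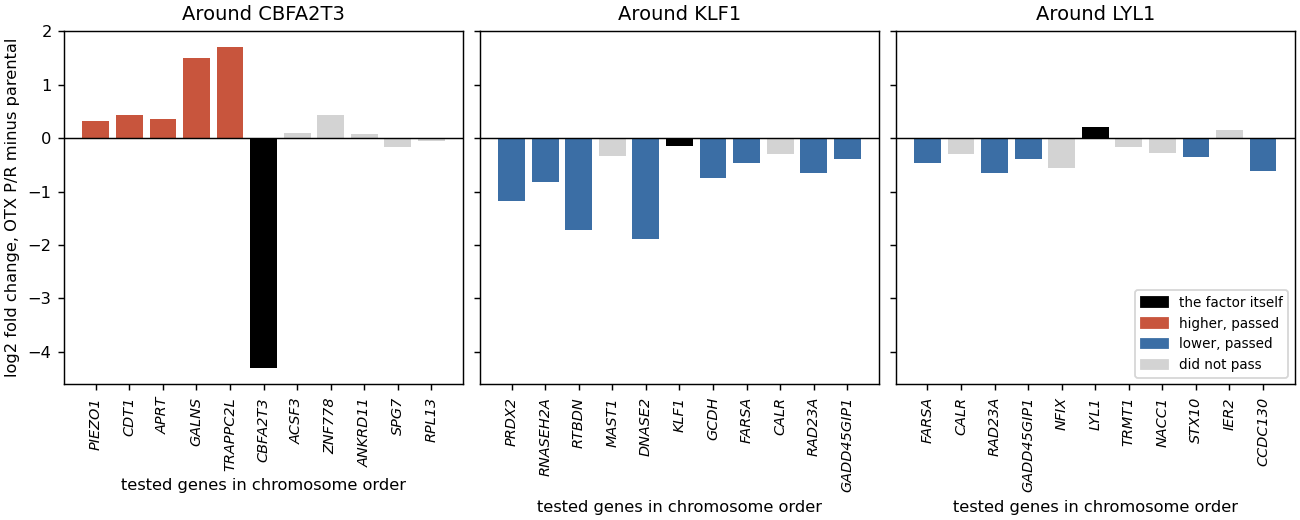
Log2 fold change (OTX P/R minus parental) of CBFA2T3, KLF1 and LYL1 (black) and of the 5 tested genes on each side in chromosome order; red passed as higher, blue as lower, grey did not pass. The bar of CBFA2T3 points down among genes at or above 0 on its left, and KLF1 and LYL1 each stand above all 10 tested genes around them.

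Genes whose values over the 6 libraries were most like those of a factor were found by the root mean square difference of log2(value + 1) after subtraction of each gene's mean. The choice is a description, and with 2 lines it mostly reflects the size of the change. For CBFA2T3 these were NMU, a neuropeptide precursor, at a difference of 0.23, ELAVL4, an RNA-binding protein of neurons, at 0.29, and SLC16A9, a solute carrier, at 0.31. ELAVL4 lies among the 5 tested genes next to TAL1, and fell from 16.3 ± 0.934 to 0.0459 ± 0.0413 (SD, n = 3 per line). For TAL1 they were TIMELESS, a replication fork protein, FBXO10, a ubiquitin ligase subunit, and CHSY1, a chondroitin synthase, at differences of 0.02 to 0.03. For GATA1 they were NDUFS5, ADIPOR1 and RP11-552F3.12, each at 0.02. For LMO2 the search was added after its values were seen, and gave SEPTIN7 at 0.41, RHNO1 at 0.49 and ZBTB38 at 0.54. Each was lowest within its line in parental replicate 3 and in OTX P/R replicate 2. That follows from choosing them by likeness to LMO2 over the same libraries. SEPTIN7 measured 8.01 and RHNO1 7.59 in the former, and 16.8 and 9.02 in the latter.

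The shares of partners and cofactors that passed, 28.6%, 42.9% and 26.1% in the order of the lists below, are set beside 36.1% of all tested genes. Of 14 tested DNA-binding and bridging partners 2 rose, 2 fell and 10 did not pass, with a median log2 fold change of 0.17. FLI1, an ETS factor of megakaryocytes, rose from 12.1 ± 0.779 to 33.1 ± 1.55 (SD, n = 3 per line; limma adjusted p = 4.62e-05), and ETV6 by a log2 fold change of 0.25. LMO4, a LIM-only relative of LMO2, went from 37.9 ± 0.215 to 22.7 ± 1.11 (limma adjusted p = 1.78e-04), and GFI1, the paralogue of GFI1B, fell by 0.48 on the log2 scale. The E proteins TCF3 and TCF12, the dimer partners of TAL1, had log2 fold changes of -0.05 and -0.38 and did not pass, nor did the GATA1 cofactor ZFPM1, at 0.12. Of 7 tested small Maf and CNC proteins, partners and relatives of NFE2, MAFK rose by 0.24, NFE2L2 and NFE2L3 had log2 fold changes of -0.34 and -0.38 and fell, and 4 did not pass. The MAFK call held in 1 of the 6 fits that left out a library, with limma adjusted p values up to 0.0979 (that call was lost without parental replicates 1 and 3 and without each OTX P/R replicate).

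Of 23 tested corepressors and coactivators 4 rose, 2 fell and 17 did not pass, with a median log2 fold change of 0.02. Besides RUNX1T1, the CoREST subunit RCOR1 rose by 0.35 and the remodelling ATPase CHD4 by 0.22, and MTA2, which partners CHD4 in the NuRD complex, was the remaining rise (log2 fold change 0.21). The MTA2 call held in 1 of the 6 fits that left out a library, the one without parental replicate 1, and its limma adjusted p otherwise reached 0.0658. HDAC3, the deacetylase of the NCoR complex, went from 40.6 ± 0.991 to 27.6 ± 2.14 (SD, n = 3 per line; limma adjusted p = 0.00160), and MED1 fell by 0.45 on the log2 scale. The CHD4 and MED1 calls were lost without parental replicate 3, OTX P/R replicate 2 or OTX P/R replicate 3. CHD4 was also lost without parental replicate 2, and MED1 without parental replicate 1 or OTX P/R replicate 1. The list then had 2 genes higher without parental replicate 2, OTX P/R replicate 2 or OTX P/R replicate 3. KDM1A, the demethylase through which GFI1B represses genes, had a log2 fold change of 0.02.

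Of the target genes tested, 75.8% passed in the erythroid list, 76.5% in the megakaryocyte and platelet list and 35.7% in the KLF1 list, beside 36.1% of all tested genes. In the erythroid list 33 genes were tested, 18 rose, 7 fell and 8 did not pass, at a median log2 fold change of 0.24. TSPAN33, a tetraspanin of erythroid progenitors, rose from 3.73 ± 0.745 to 27.1 ± 0.221 (SD, n = 3 per line; limma adjusted p = 4.12e-05). GYPE had a log2 fold change of 2.48 and rose, but it has near-identical copies between which reads could be split. EPB42, a membrane skeleton protein, rose by 2.94 on the log2 scale, from a parental mean of 0.778 to 12.5. It reached the filter of 1 only through the OTX P/R libraries. The globins HBE1, HBZ and HBB had log2 fold changes of -2.53, -2.14 and -1.30, all lower, although HBB was low in each line, at means of 2.96 and 0.615. The abundant globin HBG1 fell less, from 3346 ± 155 to 2694 ± 197 (SD, n = 3 per line; log2 fold change -0.31, limma adjusted p = 0.0154). HBG2, its near-identical copy, averaged 2599 in parental and 2095 in OTX P/R libraries and did not pass. Reads could be split between HBG1 and HBG2. HBG2 measured 2163.38 in both parental replicate 1 and OTX P/R replicate 1, a shared position in the ranking. The abundant alpha globin HBA1 went the other way, from 1078 ± 34.1 to 1250.5 ± 4.399 (SD, n = 3 per line; log2 fold change 0.21, limma adjusted p = 0.00859), although reads could be split with its near-identical copy HBA2, which did not pass. HBE1 was the highest value of each parental library, so its parental level is capped by the ranking. Among 14 tested genes known as KLF1 targets there were 4 that rose, 1 that fell and 9 that did not pass, at a median of 0.09. EPB42 belongs to this list too, the cell cycle inhibitor CDKN2C rose by 0.37 and ICAM4 by 0.35, and TMOD1, which caps actin filaments, went from 8.54 ± 0.948 to 2.42 ± 0.623 (limma adjusted p = 8.09e-04).

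In the megakaryocyte and platelet list 17 genes were tested, 9 rose, 4 fell and 4 did not pass, at a median log2 fold change of 0.54. F2RL2, a thrombin receptor, rose from 1.196 ± 0.0546 to 10.6 ± 0.660 (SD, n = 3 per line; limma adjusted p = 8.35e-06). ITGB3 rose too (log2 fold change 1.92), whereas its partner ITGA2B fell by 0.64 on the log2 scale. RAB27B, a granule GTPase, fell by 1.90 and CD36 by 0.49 on that scale. The CD36 call was lost without OTX P/R replicate 1 or OTX P/R replicate 2 (limma adjusted p up to 0.0600). The platelet genes PF4, PPBP and VWF were at or near 0, PF4 at 0 in every library. Other platelet genes were expressed and passed as higher. Parental and OTX P/R means were 4.55 and 10.3 for TUBB1, 4.93 and 17.5 for GP6, 7.07 and 24.5 for GP1BA, and 34.8 and 51.0 for GP9. GP1BB and GP5 did not pass. Of 10 tested genes known to be lowered by GATA1 or GFI1B 4 rose, 2 fell and 4 did not pass, with a median of 0.24. The share that passed was 60%, beside 36.1% of all tested genes. CD34 went from 32.6 to 63.4 and SPI1, the myeloid ETS factor also called PU.1, from 53.9 ± 1.98 to 74.5 ± 2.07 (limma adjusted p = 8.08e-04). The proto-oncogene MYC rose (log2 fold change 0.45), and this call was lost without parental replicate 2, OTX P/R replicate 2 or OTX P/R replicate 3. KIT, the stem cell factor receptor, fell by 0.95 on the log2 scale, and GFI1, described above, was the other member that fell.

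**Figure D5:**
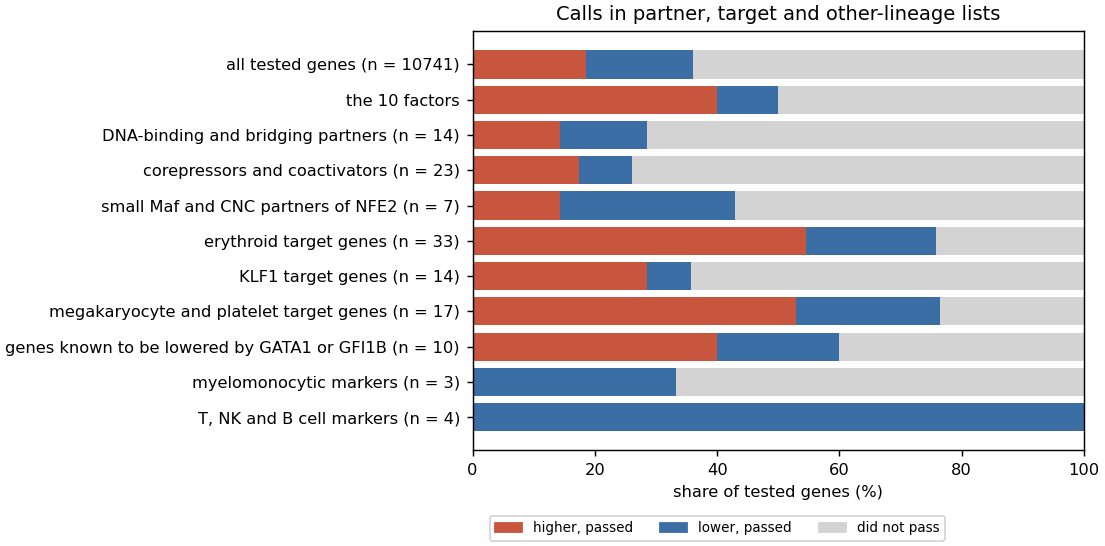
Share of tested genes that passed as higher (red), passed as lower (blue) or did not pass (grey) among all tested genes, the 10 factors and 9 lists of partners, target genes and other lineages. The erythroid and platelet target lists have 18 of 33 and 9 of 17 genes higher, against 18.6% of all tested genes.

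Markers of other lineages were mostly near 0, and of the exceptions some differed between the lines and others did not pass. Of 12 myelomonocytic markers 3 were tested, and the lysozyme gene LYZ stood at 95.7 and 92.2 and did not pass, while ITGAM fell by 1.04 on the log2 scale. CD33, the third, averaged 13.2 ± 4.17 in parental and 20.5 ± 1.25 in OTX P/R libraries (SD, n = 3 per line) without overlap. CD33 did not pass (log2 fold change 0.65, limma adjusted p = 0.0678) but passed as higher without parental replicate 2 or parental replicate 3, with limma adjusted p values down to 0.0344. The summed level of the list was 112.0 to 123.0 in parental and 106.5 to 126.5 in OTX P/R libraries. Of 12 T, NK and B cell markers 4 were tested and all 4 passed as lower, beside 17.5% of all tested genes. NKG7 went from 62.2 ± 2.64 to 29.6 ± 1.31 (SD, n = 3 per line), and the log2 fold changes were -2.18 for GZMB and -1.97 for CD3D. GZMB and CD3D averaged 0.205 and 0.593 in OTX P/R libraries. They reached the filter only through the parental libraries, so the direction of these calls follows in part from the filter. The summed level of that list was 78.4 to 87.5 in parental and 36.2 to 38.4 in OTX P/R libraries, with MS4A1 at 0 in every library. The part of these markers in the changes above was not tested.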

How the data were processed

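RNA-seq of 3 SET-2 Parental and 3 SET-2 OTX P/R cultures was grouped by sample title. The submitters' processing notes list Trim Galore, HISAT2, StringTie and hg19; no versions are stated. The authors deposited a linear signal per gene, a StringTie abundance, and no source tells FPKM from TPM. Sorted libraries differed by no more than 0.243%, so the authors had made their distributions equal (quantile normalization). Depth is lost, and no counting intervals are given.

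Genes with a missing value (6 of 19785) were dropped. The 10741 with a mean of at least 1 were fitted on log2(value + 1) in limma 3.58.1 under R 4.3.3, by eBayes with an intensity trend and two-sided tests. P-values were Benjamini-Hochberg adjusted over these genes, and a call needs an adjusted p under 0.05. This scale understates changes of low genes; SDs are of untransformed values. The submitters call the replicates biologic, and p-values measure the spread between them. Pairs of factors were compared by exact two-sided permutation. The fit was tested on simulated data.

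The members and lists were chosen with earlier results of these data known. The text names the 10 members, up to 3 called genes per direction in each of 9 lists, and the 3 genes most like GATA1, TAL1 and CBFA2T3; some results the rule covers are not reported here. MTA2, HBA1, HBA2, HBG1, HBG2, CD33, ZFPM1, TCF3, TCF12, KDM1A, LYZ and CBFA2T2 were picked after their values were seen. So were TUBB1, GP6, GP1BA, GP9, GP1BB, GP5, the genes at or near 0, the named neighbours and the genes like LMO2. GENCODE v29 gave the order of neighbours only, since it is on GRCh38 and the authors' build is not. Alternatives changed the pseudocount (0.1, 5) or the minimum mean (none, 5), dropped the trend, made the prior robust, centred libraries on their medians, blocked on replicate number, left out each library, or took 10 neighbours on each side. Python 3.11.15 with pandas 2.3.3, NumPy 2.4.6 and Matplotlib 3.10.9 made the tables and plots.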

Additional observations from a re-analysis of the deposited data

How the results depend on the processing

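The calls of 9 of the 10 factors held under all 14 alternatives, which changed the pseudocount, filter, prior, centring, block or libraries. The exception was KLF1, which passed as lower without parental replicate 3, so the number of factors that passed as lower ran from 1 to 2 over the libraries left out, and the number that passed as higher was 4 in each. No log2 fold change of a factor and no difference of a pair of factors reversed. Over all tested genes 1998 passed as higher and 1881 as lower. With the replicate number as a block these counts were 1607 and 1552, and 4 factors passed as higher and 1 as lower. Among the lists the block moved only the corepressors and coactivators by more than 1.5 times, to 2 higher and 1 lower, and the CD36 call was lost under it, as were those of CHD4, MTA2, MED1 and MYC. The calls of CD36, CHD4, MED1 and MYC were also lost when no filter on low values was used. Same-numbered libraries did not deviate together (correlations of -0.06, -0.03 and -0.00), so the numbers were not taken to pair the libraries. The medians over neighbours moved by more than the spread between libraries for 6 of the 10 factors when 10 genes on each side were taken. They were then -0.01 for GATA2, 0.06 for TAL1, 0.05 for LMO2, -0.12 for LDB1, -0.48 for KLF1 and 0.03 for GFI1B, so the signs for GATA2 and LMO2 changed. Since depth is unknown, the counting error of the low OTX P/R values of CBFA2T3 cannot be given.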
